A study of Mus musculus with 6 samples.

Results

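The genes described here encode the machinery that stores transmitter in synaptic vesicles, docks and primes those vesicles at the active zone, fuses them with the plasma membrane and retrieves the membrane afterwards. They were the 33 genes named in a list of vesicle proteins, SNARE proteins, calcium sensors, active zone proteins and endocytic proteins, taken by symbol from the 54429 gene rows of the count table, and all 33 were found. The tissue was prefrontal cortex of mice aged 6 to 8 weeks, profiled by sequencing of total RNA after removal of ribosomal RNA. In 3 libraries the cortex had received AAV9, an adeno-associated virus that infects neurons, carrying a short hairpin RNA against Kmt5b. In the other 3 it had received AAV9 carrying GFP, and the labels name no control hairpin. Kmt5b, an autism risk gene, encodes a histone H4 lysine 20 methyltransferase. The labels give every mouse as C57BL6/J, whereas the design text describes a cross of C57BL/6 with C3H. The design text also counts 2 control mice against 3 GFP libraries, and the extraction protocol speaks of duplicates, so p-values measure the spread between libraries, part of which may be technical. The promoter driving the hairpin, and the share of cells infected, are not given in the sources used here.

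At a central synapse an action potential opens calcium channels at the active zone, and calcium binding to a synaptotagmin on the vesicle triggers fusion. The fusion itself is driven by SNARE proteins: a synaptobrevin (Vamp) on the vesicle zips together with syntaxin and Snap25 on the plasma membrane, while complexins clamp and then promote the assembled complex. Scaffolds such as RIM, Munc13, Bassoon and Piccolo hold primed vesicles close to the channels. In cortex, fast-spiking interneurons that express parvalbumin use the paralogs Syt2, Vamp1 and Cplx1 to a greater degree than most pyramidal cells, which rely on Syt1, Vamp2 and Cplx2.

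The libraries held 57486203, 48828638 and 54254006 counts in the Kmt5b shRNA group and 69869079, 29490771 and 74723284 counts in the GFP group. Kmt5b itself had 68.5, 80.3 and 63.9 CPM (counts scaled to the TMM-adjusted library size) in the Kmt5b shRNA libraries, against 86.5, 79.7 and 80.9 CPM in the GFP libraries, a log2 fold change of -0.22 ± 0.10 (SE) with an edgeR adjusted p of 0.303. The groups overlapped, so the directions below rest on the labels. The cortical label was checked on markers: the summed level of 9 genes of cortical excitatory neurons, Slc17a7 among them, lay between 3011 and 3322 CPM in the Kmt5b shRNA libraries and between 2708 and 3174 CPM in the GFP libraries. The summed level of 9 pan-neuronal markers, Snap25 among them, lay between 6239 and 7447 CPM in Kmt5b shRNA and between 6667 and 8151 CPM in GFP libraries. Summed oligodendrocyte markers (8 genes) ranged more widely, between 1524 and 3221 CPM in Kmt5b shRNA and between 2771 and 4244 CPM in GFP libraries. All 8 oligodendrocyte genes had negative log2 fold changes and 0 were called. Of the other lists, edgeR called 2 of 8 astrocyte and 1 of 9 pan-neuronal markers lower and 1 of 8 striatal markers higher. Over all genes tested it called 2.77% higher and 5.69% lower. It called 0 of 9 markers of cortical excitatory neurons, 0 of 4 of oligodendrocyte precursors, 0 of 6 of microglia and 0 of 4 of endothelial cells. The part of these cells in the results was not tested. In bulk tissue, fewer cells of a type and less RNA per cell cannot be told apart.

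Most of the release machinery differed little between the groups. At an adjusted p under 0.05 in edgeR's quasi-likelihood test over 24419 genes, Syn2 was higher in the Kmt5b shRNA libraries and 0 of the 33 genes were lower. Over all genes tested, 2.77% were called higher and 5.69% lower. At an unadjusted p under 0.05 there were 4 genes, namely Syn2, Bsn, Vamp1 and Syt2, where 17.4% of all genes passed that limit. The other 29 genes had log2 fold changes from -0.30 to 0.19. The median log2 fold change of the 33 genes was 0.05, against -0.02 for all genes tested. For 27 of the 33 genes the 95% interval of the change lay within 1.5-fold in either direction, and the exceptions were Syn2, Syp, Sv2c, Syt2, Vamp1 and Bsn. No gene here had an intronless copy elsewhere in the annotation. A further fit kept 12274 protein-coding genes that share no sequence with other protein-coding genes or pseudogenes, 31 of the 33 among them. Antisense and other noncoding transcripts were outside that search, so Syp and Erc1, which overlap antisense transcripts, stayed in. There edgeR called 0 higher and 0 lower, where 0.66% of genes were called higher and 0.285% lower. The 4 genes at an unadjusted p under 0.05 passed that limit there too, as did Cplx1, against 15.0% of the genes in that fit.

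The count of calls depended on the fit. With DESeq2 the calls were Syn2 and Bsn higher, and Vamp1 and Syt2 lower, where 2.68% of genes with an adjusted p were called higher and 5.15% lower. With no low-count filter edgeR called the same 4 genes in the same directions, where 2.47% of genes were higher and 4.94% lower. With the replicate number as a block, Syn2 was higher and Vamp1 lower, where 2.88% and 6.17% of genes were called. Among protein-coding genes alone edgeR called 0 of the 33, against 2.99% of genes higher and 1.17% lower. With counts of intronless copies added to their parents it likewise called 0, against 1.58% higher and 1.81% lower.

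**Figure D1:**
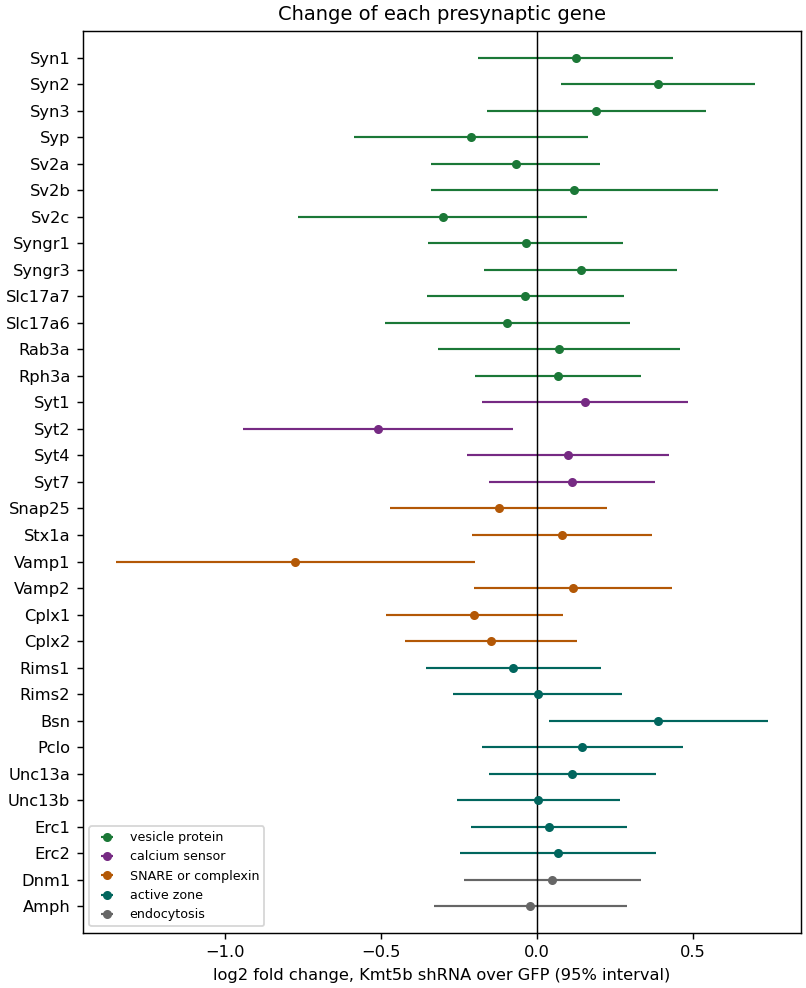
Log2 fold change (Kmt5b shRNA over GFP) of each of the 33 presynaptic genes, coloured by class, with its 95% interval on 4 residual degrees of freedom. The intervals of Syn2 and Bsn lie above 0 and those of Vamp1 and Syt2 below 0.

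The groups were also compared by whether their libraries overlapped. CPM values did not overlap for Syn2 and Bsn, which were higher in every Kmt5b shRNA library, or for Vamp1, Cplx1 and Cplx2, which were lower in every one. The other 28 genes overlapped. Over all genes tested 22.5% did not overlap, 9.84% being higher and 12.7% lower. GFP replicate 2, the shallowest library, was the lowest of the 6 for 10 of the 33 genes and the highest for 7, so it held extremes in both directions. GFP replicate 1 was the highest for 12 genes and GFP replicate 3 for 0. The coefficient of variation was larger among the GFP than among the Kmt5b shRNA libraries for 26 of the 33 genes. Its median was 6.67% in the Kmt5b shRNA libraries and 11.6% in the GFP libraries.

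**Figure D2:**
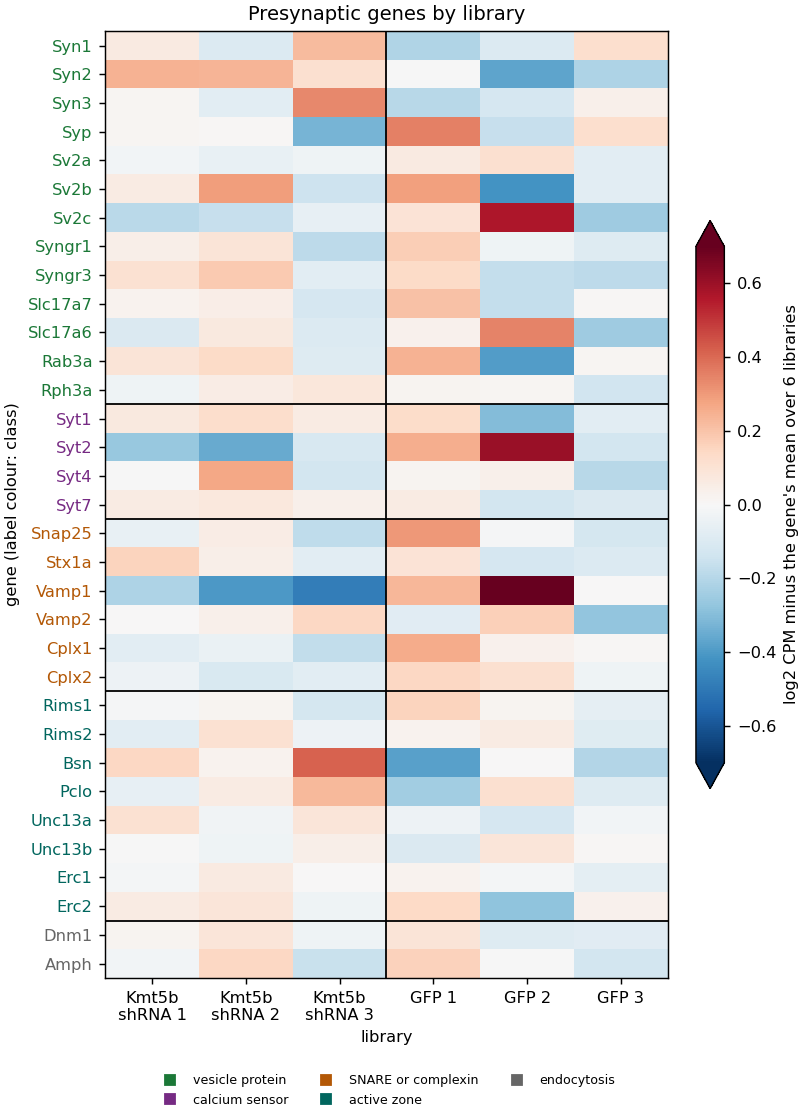
Log2 CPM of each gene in each library, minus that gene's mean over the 6 libraries; rows are genes grouped by class and columns are libraries. Vamp1, Syt2 and Sv2c are highest in GFP replicate 2, while Sv2b, Rab3a, Syn2 and Syt1 are lowest there.

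Promoters of Syn2, Vamp1 and Syt2, which had an unadjusted edgeR p under 0.05, are shown next. Bsn, which also had one, is not shown. Syn1 is added because, of the 26 genes with windows, only its window held the searched part of a neuronal repressor's site. Sequences are from RefSeq on GRCm38.p6, 5′ to 3′ on the gene's strand. Each begins 250 bases before the annotated start and stops at the start, or at GENCODE's gene start where that lies earlier. They are Syn1 at chrX:20921005-20921168 on the minus strand, Syn2 at chr6:115134652-115134901, Vamp1 at chr6:125215331-125215550 and Syt2 at chr1:134646362-134646611, these on the plus strand. Syn2 and Syt2 have a further annotated start each, not shown. Capitals mark GGGCGG (a GC box, bound by Sp1), TGACGTCA (the cAMP response element) and TTCAGCACC (the left part of the RE1 element bound by the neuronal repressor REST), on either strand.
Syn1: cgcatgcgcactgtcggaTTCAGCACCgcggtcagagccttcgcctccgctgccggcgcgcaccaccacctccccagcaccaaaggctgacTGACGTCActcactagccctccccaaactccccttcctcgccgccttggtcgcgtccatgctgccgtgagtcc
Syn2: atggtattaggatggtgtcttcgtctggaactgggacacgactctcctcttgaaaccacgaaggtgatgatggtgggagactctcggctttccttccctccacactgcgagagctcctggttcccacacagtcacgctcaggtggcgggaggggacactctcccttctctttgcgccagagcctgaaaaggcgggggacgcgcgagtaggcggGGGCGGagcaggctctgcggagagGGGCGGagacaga
Vamp1: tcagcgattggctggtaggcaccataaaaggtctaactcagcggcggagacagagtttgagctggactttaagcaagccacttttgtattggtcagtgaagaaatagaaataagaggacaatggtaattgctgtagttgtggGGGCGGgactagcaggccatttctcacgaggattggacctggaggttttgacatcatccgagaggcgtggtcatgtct
Syt2: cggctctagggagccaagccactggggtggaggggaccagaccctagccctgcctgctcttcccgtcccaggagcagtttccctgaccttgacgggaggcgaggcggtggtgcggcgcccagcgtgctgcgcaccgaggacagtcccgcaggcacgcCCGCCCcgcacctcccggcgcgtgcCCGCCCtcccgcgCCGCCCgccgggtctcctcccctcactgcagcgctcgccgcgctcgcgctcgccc
In the full windows of 250 bases there were 2 GC boxes for Syn2, 1 for Vamp1 and 3 for Syt2, with no match overlapping another. Over the set, RefSeq windows were found for 26 of the 33 genes, 36 windows in all. GGGCGG stood in 20 of these 36 windows (55.6%), against 32.7% of all 32851 windows in the table. TGACGTCA and TTCAGCACC each stood in 1 of the 36 windows, that of Syn1 in both cases, against 1.55% and 0.301% of all windows. The GC box is thus held by Syn2, which was called higher, and by Vamp1 and Syt2, whose values were lower. Bsn, whose values were higher, was not among the 19 genes with a GC box found, and not every gene had a window. A match here describes the letters and not a bound site.

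Among the 13 vesicle proteins 1 was called higher and 0 lower, with a median log2 fold change of 0.07. The synapsins coat the cytoplasmic face of vesicles and tether them in the reserve pool. Syn2 had 706, 703 and 644 CPM in the Kmt5b shRNA libraries, against 595, 461 and 513 CPM in the GFP libraries. The lowest Kmt5b shRNA library thus lay above the highest GFP library. The means were 684 ± 34.8 CPM under Kmt5b shRNA and 523 ± 67.7 CPM under GFP (SD, n = 3 each), and the log2 fold change was 0.39 ± 0.11 (SE) with an edgeR adjusted p of 0.0433. In linear terms the change was 30.9% (95% interval from 5.55% to 62.3%). When single libraries were left out, the Syn2 adjusted p was 0.114 without replicate 2 and 0.20 without replicate 1 of the Kmt5b shRNA group. It was 0.169 without replicate 2 and 0.145 without replicate 3 of the GFP group, and 0.0959 in the genes sharing no sequence. Syn2 and Timp4, which lies on the opposite strand, share 90 exonic bases in the annotation, 1.28% of the exonic length of Syn2.

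The other synapsins did not pass. Syn1 had 148, 132 and 165 CPM in Kmt5b shRNA and 122, 133 and 153 CPM in GFP libraries, a log2 fold change of 0.12 ± 0.11 (SE, edgeR adjusted p = 0.676). Its groups overlapped. Syn3, the least abundant synapsin, had a log2 fold change of 0.19 ± 0.13 (SE, edgeR adjusted p = 0.524). Timp3 lies on the opposite strand of Syn3 and shares 1733 of its exonic bases (14.1%), so the Syn3 value is uncertain.

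The integral vesicle membrane proteins showed a mix of small positive and negative values. Synaptophysin (Syp), the most used marker of synaptic vesicles, had 551, 548 and 435 CPM in the Kmt5b shRNA libraries, against 696, 489 and 592 CPM in the GFP libraries. GFP replicate 1 was highest and Kmt5b shRNA replicate 3 lowest, and the groups overlapped (log2 fold change -0.21 ± 0.14, SE, edgeR adjusted p = 0.496). An antisense transcript, Gm14703, overlaps 16.8% of the exonic bases of Syp. The synaptogyrins, relatives of synaptophysin, had log2 fold changes of -0.036 ± 0.11 (Syngr1) and 0.14 ± 0.11 (Syngr3, SE each). Their edgeR adjusted p were 0.931 and 0.623. Sv2 proteins are transporter-like glycoproteins of the vesicle. Sv2a, the main form and the binding site of the antiepileptic drug levetiracetam, differed by -0.068 ± 0.10 on the log2 scale (SE, edgeR adjusted p = 0.819). Sv2b varied widely, with 1171, 1379.8 and 1018 CPM in Kmt5b shRNA and 1372, 842 and 1071 CPM in GFP libraries. Its lowest and second highest values came from the GFP group and its groups overlapped. Sv2c, a form of restricted distribution, had 22.8, 23.2 and 25.0 CPM in Kmt5b shRNA and 27.7, 38.5 and 21.9 CPM in GFP libraries. GFP replicate 2 was the highest and GFP replicate 3 the lowest of the 6, so the log2 fold change of -0.30 ± 0.17 (SE, edgeR adjusted p = 0.415) came with a wide spread.

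Vesicular glutamate transporters fill vesicles with glutamate. Slc17a7 encodes VGLUT1, the form of cortical pyramidal cells, and Slc17a6 encodes VGLUT2, the form of thalamic and other subcortical neurons. Slc17a7 had 980.2, 996 and 888 CPM in the Kmt5b shRNA libraries, against 1109, 859 and 971 CPM in the GFP libraries. Slc17a6 had 15.7, 17.7 and 15.8 CPM in Kmt5b shRNA and 17.2, 21.4 and 14.2 CPM in GFP libraries. Both genes overlapped between the groups, with log2 fold changes of -0.037 ± 0.11 and -0.10 ± 0.14 (SE each) and edgeR adjusted p of 0.931 and 0.829. Slc17a6 counts were 1.6%, 1.78% and 1.78% of Slc17a7 counts in the Kmt5b shRNA and 1.55%, 2.49% and 1.46% in the GFP libraries, and GFP replicate 2 alone stood above 2%. The difference of the mean log2 ratio, Kmt5b shRNA minus GFP, was -0.05. Without GFP replicate 2 it was 0.19 and the ratios did not overlap, at 1.6% or more against 1.55% or less (two-sided exact permutation p = 0.2). That is the smallest p the test can give with a library left out, so it could not call a difference. Of 7 thalamic and subcortical markers, which include Slc17a6, 6 were tested and 0 passed, while Gbx2 was at or below 0.153 CPM in every library. Their summed level was between 147 and 161 CPM in Kmt5b shRNA and between 152 and 168 CPM in GFP libraries.

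Rab3a, the small GTPase that marks release-ready vesicles, had 414, 426 and 364 CPM in Kmt5b shRNA and 459, 296 and 392 CPM in GFP libraries. On the log2 scale it differed by 0.070 ± 0.14 (SE, edgeR adjusted p = 0.881), and GFP replicate 2 was again the lowest. Its effector rabphilin (Rph3a) had a narrow spread and a log2 fold change of 0.067 ± 0.10 (SE, edgeR adjusted p = 0.820).

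Among the 4 synaptotagmins, 0 were called in either direction. Syt1 is the fast calcium sensor of most forebrain synapses. It had 2105, 2191 and 2088 CPM in the Kmt5b shRNA libraries, against 2199, 1632 and 1909 CPM in the GFP libraries, and the groups overlapped (log2 fold change 0.15 ± 0.12, SE, edgeR adjusted p = 0.608). Syt2 is the faster-acting relative used by parvalbumin cells and by many brainstem and spinal neurons. It had 20.3, 19.1 and 22.6 CPM in the Kmt5b shRNA libraries, against 29.2, 37.2 and 22.4 CPM in the GFP libraries. Kmt5b shRNA replicate 3 and GFP replicate 3 were nearly equal; the other GFP libraries lay above every Kmt5b shRNA library. The means were 20.7 ± 1.80 CPM under Kmt5b shRNA and 29.6 ± 7.39 CPM under GFP (SD, n = 3 each), and the log2 fold change was -0.51 ± 0.16 (SE) with an edgeR adjusted p of 0.0677, just outside the threshold. The 95% interval of the Syt2 change ran from -48.0% to -5.26%. Without GFP replicate 3 the log2 fold change of Syt2 was -0.68 with an adjusted p of 0.00343, and without GFP replicate 2 it was -0.31 with an adjusted p of 0.265. Syt4, which acts on dense-core vesicles, had 0.10 ± 0.12, and Syt7, a slow sensor of asynchronous release and facilitation, had 0.11 ± 0.10 on the log2 scale (SE each). Their edgeR adjusted p were 0.774 and 0.656. Antisense transcripts overlap 14.5% of the exonic bases of Syt4 and 5.13% of those of Syt7.

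Of the 6 SNARE and complexin genes 0 were called in either direction, and 3 of 6 were lower in every Kmt5b shRNA library, where 12.7% of all genes tested were. Their log2 fold changes had a median of -0.14. Vamp1 had the largest difference of the 33 genes. It encodes synaptobrevin-1, the vesicle SNARE of fast-spiking, brainstem and motor neurons. Its values were 59.4, 52.1 and 49.4 CPM in the Kmt5b shRNA libraries, against 81.0, 126 and 69.2 CPM in the GFP libraries. Every Kmt5b shRNA library was below every GFP library, and GFP replicate 2 stood well above the other two of its group. The means were 53.6 ± 5.19 CPM under Kmt5b shRNA and 92.0 ± 29.8 CPM under GFP (SD, n = 3 each), and the log2 fold change was -0.77 ± 0.21 (SE) with an edgeR adjusted p of 0.0637. The 95% interval of the Vamp1 change ran from -60.8% to -12.8%. Without GFP replicate 2 the Vamp1 log2 fold change was smaller, at -0.48, with an adjusted p of 0.0195. Without GFP replicate 3 the values were -0.94 and 0.00170. Over all genes Vamp1 passed in 2 of 6 edgeR fits with a library left out, and its largest adjusted p there was 0.294. Vamp1 also passed in DESeq2 (adjusted p = 0.000299), and in edgeR with the replicate number as a block (adjusted p = 0.00988), though the numbers are not known to pair the libraries. In the genes sharing no sequence its edgeR adjusted p was 0.126, and it passed in 0 of 6 fits there with a library left out.

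The other SNAREs differed by less. Vamp2, the synaptobrevin of most forebrain synapses, had 225, 230.1 and 248 CPM in Kmt5b shRNA and 212, 252 and 186 CPM in GFP libraries, a log2 fold change of 0.12 ± 0.11 (SE, edgeR adjusted p = 0.715). Snap25, the most abundant gene of the set, had 2587, 2783 and 2373 CPM in the Kmt5b shRNA libraries, against 3305, 2664 and 2465 CPM in the GFP libraries, with overlap (edgeR adjusted p = 0.722). Stx1a, the plasma membrane syntaxin, had a log2 fold change of 0.081 ± 0.10 (SE, edgeR adjusted p = 0.792).

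Both complexins were lower in every Kmt5b shRNA library without passing the test. Cplx1 had 271, 276 and 254 CPM in Kmt5b shRNA and 341, 291 and 287 CPM in GFP libraries, a log2 fold change of -0.20 ± 0.10 (SE, edgeR adjusted p = 0.348). Cplx2 had 711, 677 and 692 CPM in Kmt5b shRNA and 805, 787 and 713 CPM in GFP libraries, a log2 fold change of -0.15 ± 0.10 (SE, edgeR adjusted p = 0.526). The gaps between the groups were small: the highest Cplx1 value among Kmt5b shRNA libraries was 276 CPM and the lowest among GFP libraries 287 CPM. For Cplx2 the corresponding values were 711 and 713 CPM.

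**Figure D3:**
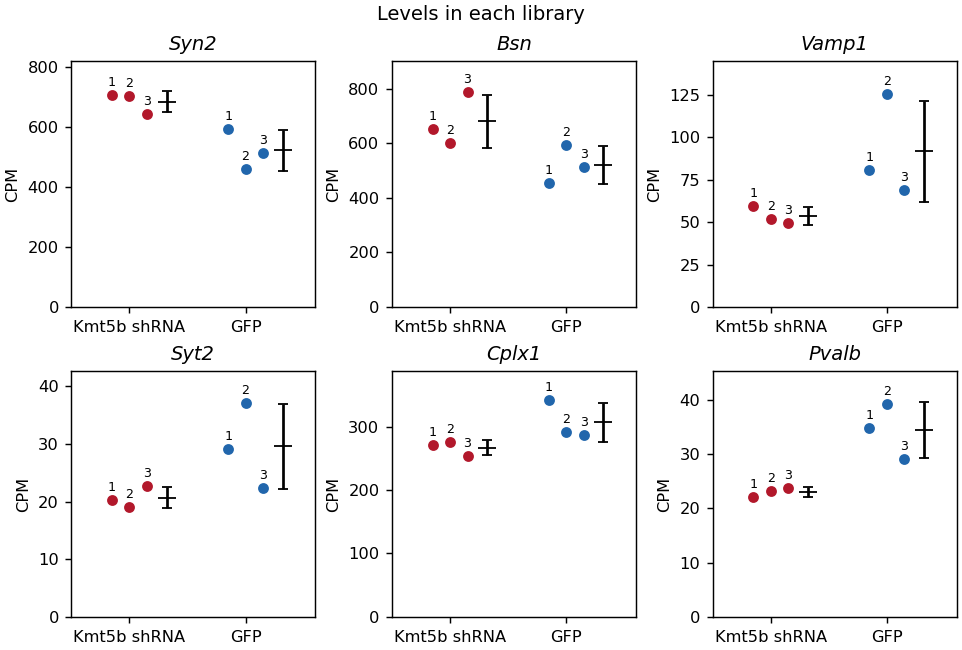
CPM in each library (points, numbered by replicate) with mean and SD (bars, n = 3) for 5 presynaptic genes and the interneuron marker Pvalb, Kmt5b shRNA left and GFP right in each panel. Vamp1, Syt2 and Pvalb are each highest in GFP replicate 2, at 126, 37.2 and 39.3 CPM.

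Comparing each paralog of fast-spiking cells with its general paralog inside the same library removes any effect of library scaling. Vamp1 counts were 26.4%, 22.6% and 19.9% of Vamp2 counts in the Kmt5b shRNA libraries, against 38.2%, 49.9% and 37.3% in the GFP libraries. Syt2 counts were 0.965%, 0.872% and 1.08% of Syt1 counts in the Kmt5b shRNA libraries, against 1.33%, 2.28% and 1.17% in the GFP libraries. Neither ratio overlapped between the groups. Cplx1 counts were 38.1%, 40.7% and 36.7% of Cplx2 counts in the Kmt5b shRNA and 42.4%, 37.0% and 40.3% in the GFP libraries, which overlapped. The mean log2 ratio differed, Kmt5b shRNA minus GFP, by -0.86 for Vamp1 over Vamp2, by -0.65 for Syt2 over Syt1 and by -0.05 for Cplx1 over Cplx2. The two-sided exact permutation p was 0.1, 0.1 and 0.6 for these, and 0.3, 0.3 and 0.72 after Benjamini-Hochberg adjustment over the 6 ratios computed. With 3 against 3 libraries no p of this test can be below 0.1, so the permutation test could not call any ratio. Leaving out each library in turn, the difference stayed between -0.96 and -0.73 for Vamp1 over Vamp2 and between -0.84 and -0.36 for Syt2 over Syt1. The Syt2 value was smallest without GFP replicate 2. Ratios between paralogs of the same active zone family moved less, by -0.11 for Unc13b over Unc13a and by 0.08 for Rims2 over Rims1 (two-sided exact permutation p = 0.3 each, 0.45 adjusted).

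**Figure D4:**
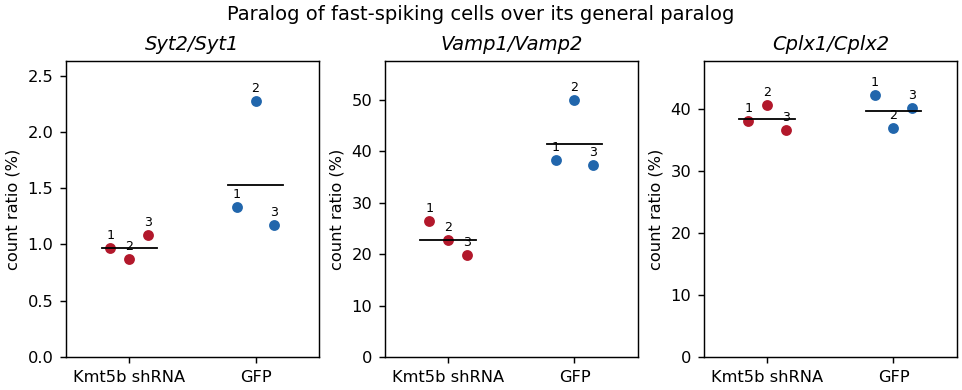
Counts of Syt2, Vamp1 and Cplx1 as a percentage of counts of Syt1, Vamp2 and Cplx2 in the same library (points, numbered by replicate), Kmt5b shRNA left and GFP right; lines are means of the log2 ratios. The Vamp1 ratio lies between 19.9% and 26.4% in the Kmt5b shRNA libraries and between 37.3% and 49.9% in the GFP libraries.

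Markers of parvalbumin interneurons were measured beside these paralogs. Pvalb, the calcium buffer that names the cells, had 22.1, 23.3 and 23.7 CPM in the Kmt5b shRNA libraries, against 34.9, 39.3 and 29.1 CPM in the GFP libraries. It was lower in every Kmt5b shRNA library, with a log2 fold change of -0.58 ± 0.12 (SE) and an edgeR adjusted p of 0.00329. Nefh, the heavy neurofilament of large and fast-firing neurons, had 49.8, 50.5 and 47.0 CPM in Kmt5b shRNA and 72.5, 114 and 62.3 CPM in GFP libraries, so GFP replicate 2 was its highest library too (edgeR adjusted p = 0.0622). The medium neurofilament Nefm, a pan-neuronal marker, had a log2 fold change of -0.59 ± 0.12 (SE, edgeR adjusted p = 0.00329). Of the 10 parvalbumin cell markers, 1 (Pvalb) was called lower and 0 were called higher, 6 had negative and 4 positive log2 fold changes, and the median was -0.03. Over all genes tested 5.69% were called lower and 2.77% higher, and the median was -0.02. Lhx6, a transcription factor of interneurons from the medial ganglionic eminence, went the other way, with 16.3, 15.9 and 18.5 CPM in Kmt5b shRNA and 14.9, 14.5 and 12.9 CPM in GFP libraries. Its groups did not overlap, but it was not called (log2 fold change 0.26 ± 0.12, SE, edgeR adjusted p = 0.279). Tac1, a neuropeptide precursor, also had a positive value, 0.19 ± 0.15 on the log2 scale (SE, edgeR adjusted p = 0.611), and overlapped. The potassium channel genes Kcnc1 and Kcnc2 had log2 fold changes of -0.066 ± 0.12 and 0.011 ± 0.10, and Gad1, which makes GABA, had -0.11 ± 0.09 (SE each), with edgeR adjusted p of 0.865, 0.980 and 0.642. The summed level of the 10 markers lay between 809 and 869 CPM in Kmt5b shRNA and between 843 and 962 CPM in GFP libraries. Gad1 averaged 232 CPM in Kmt5b shRNA and 251 CPM in GFP libraries, against 23.0 and 34.4 CPM for Pvalb. Pvalb thus weighed little in this sum. The part of parvalbumin cells in the Vamp1 and Syt2 values was not tested.

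Active zone scaffolds, 8 genes with a median log2 fold change of 0.05, included 0 called genes. Bsn encodes Bassoon, a giant scaffold that tethers vesicles near release sites. It had 653, 601 and 788 CPM in the Kmt5b shRNA libraries, against 453, 592 and 514 CPM in the GFP libraries. The groups did not overlap, but Kmt5b shRNA replicate 2 and GFP replicate 2 were close. Bsn averaged 681 ± 96.5 CPM under Kmt5b shRNA and 519.9 ± 69.7 CPM under GFP (SD, n = 3 each), and the log2 fold change was 0.39 ± 0.13 (SE) with an edgeR adjusted p of 0.0816. Bsn passed when Kmt5b shRNA replicate 2 was left out (adjusted p = 0.0415) and when GFP replicate 2 was left out (adjusted p = 0.0423). It passed in 2 of 6 such edgeR fits over all genes, with a largest adjusted p of 0.292. Among the genes sharing no sequence it passed in 0 of 6. Pclo, the sister scaffold Piccolo, had 504, 545 and 614 CPM in Kmt5b shRNA and 443, 567 and 494 CPM in GFP libraries and overlapped (log2 fold change 0.15 ± 0.12, SE, edgeR adjusted p = 0.623).

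The remaining active zone genes lay close to 0. Rims1 and Rims2 encode RIM proteins, which link Rab3 on the vesicle to Munc13 and to calcium channels, and had log2 fold changes of -0.076 ± 0.10 and 0.0026 ± 0.10 (SE each). Unc13a and Unc13b encode Munc13 proteins, which open syntaxin to prime vesicles, and had 0.11 ± 0.10 and 0.0036 ± 0.09 on the same scale. The ELKS proteins Erc1 and Erc2 had 0.038 ± 0.09 and 0.067 ± 0.11. The edgeR adjusted p of these 6 genes was between 0.649 and 0.994. Unc13b had one of the narrowest intervals of the set, from -16.3% to 20.1%. Colgalt1, on the opposite strand, shares 3.92% of the exonic bases of Unc13a, and an antisense transcript shares 11.8% of those of Erc1.

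The 2 endocytic genes had small log2 fold changes and were not called. Dnm1, the GTPase dynamin-1 that pinches vesicles off the membrane, had 914, 956 and 884 CPM in Kmt5b shRNA and 961, 846 and 854 CPM in GFP libraries, a log2 fold change of 0.050 ± 0.10 (SE, edgeR adjusted p = 0.884). Amph, its membrane-curving partner amphiphysin, had -0.021 ± 0.11 (SE, edgeR adjusted p = 0.962). The 95% interval of the change ran from -14.9% to 25.9% for Dnm1 and from -20.4% to 22% for Amph.

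Scaled per kilobase of annotated exon, the set spanned more than 2 orders of magnitude. Snap25 was the highest, at a mean level of 380.1 CPM per kilobase in the Kmt5b shRNA and 414 in the GFP libraries, followed by Syt1 at 255 and 229. Slc17a7, Rab3a and Dnm1 came next at 177, 180.3 and 175 CPM per kilobase in the Kmt5b shRNA libraries and 182, 172 and 169 in the GFP libraries. These 3 neighbours did not differ beyond their spread between libraries. At the low end were Syn3 at 1.58 and 1.38, Sv2c at 2.44 and 3.03, Slc17a6 at 3.04 and 3.26 and Syt2 at 2.71 and 3.87 CPM per kilobase in the Kmt5b shRNA and GFP libraries. Vamp1 was at 5.28 CPM per kilobase in the Kmt5b shRNA and 9.04 in the GFP libraries, far below Vamp2 at 61.6 and 56.9. Active zone genes sat in the lower range, from 4.73 (Erc1) to 48.1 (Rims1) in the Kmt5b shRNA and from 4.61 (Erc1) to 50.7 (Rims1) in the GFP libraries. Exon lengths count every annotated exon, so levels of genes with long rarely used exons are understated.

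**Figure D5:**
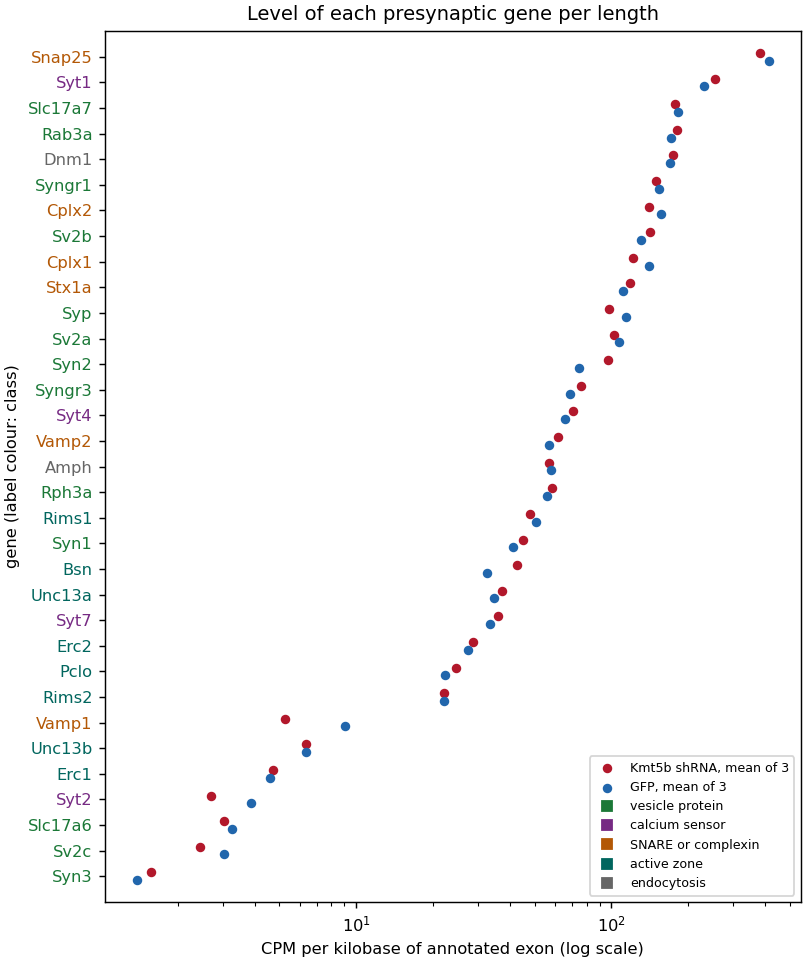
Mean CPM per kilobase of annotated exon (log axis) of each gene in the Kmt5b shRNA and GFP libraries (n = 3 each), ordered by the mean over all libraries. Snap25 and Syt1 lead, and Syn3, Sv2c, Slc17a6 and Syt2 are lowest, with Syt2 and Vamp1 showing the widest gaps between groups.

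Beyond the 33 genes, 66 others of the presynaptic pathway were listed, and 64 of these were tested. Over all genes edgeR called 2 of the 64 higher and 1 lower, where 2.77% of genes were higher and 5.69% lower, and the median log2 fold change was 0.03. Ap2m1, a subunit of the clathrin adaptor AP-2, had 357, 391 and 318 CPM in the Kmt5b shRNA libraries, against 146, 113 and 119.6 CPM in the GFP libraries, a log2 fold change of 1.49 ± 0.12 (SE) with an edgeR adjusted p of 2.21e-07. It has 2 intronless copies in the annotation. With the counts of copies added to the gene, Ap2m1 differed by 0.19 ± 0.12 on the log2 scale (SE) and did not pass (edgeR adjusted p = 0.530). Vamp3, cellubrevin, a SNARE of endosomal traffic found widely outside neurons, was higher at 42.3 ± 6.24 CPM under Kmt5b shRNA and 29.6 ± 2.02 CPM under GFP (SD, n = 3 each). On the log2 scale it differed by 0.52 ± 0.12 (SE, edgeR adjusted p = 0.00771), and it passed with any library left out, while its adjusted p was 0.0583 in the genes sharing no sequence. Syt3, a synaptotagmin with high calcium affinity, was lower, at 32.4, 32 and 27.5 CPM in the Kmt5b shRNA libraries against 44.7, 40.2 and 41.1 CPM in the GFP libraries. On the log2 scale Syt3 differed by -0.46 ± 0.10 (SE, edgeR adjusted p = 0.00833), and its adjusted p was 0.0428 in the genes sharing no sequence and 0.0581 without Kmt5b shRNA replicate 3. Sncb, beta-synuclein, had the next smallest p among genes with a negative value, with -0.27 ± 0.12 on the log2 scale (SE, edgeR adjusted p = 0.221), and overlapped between the groups. Cplx4, with at most 4 counts in a library, did not reach the count minimum. Vamp7 had 0 counts in every library and no match in GENCODE M21, so its level cannot be read here.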

How the data were processed

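Total RNA of prefrontal cortex was sequenced in 6 libraries, 3 per group, with a stranded kit after removal of ribosomal RNA. The deposited values are whole-number counts per gene symbol, between 29490771 and 74723284 per library. Per the labels' protocols, reads were trimmed with Cutadapt and aligned with TopHat2 to RefSeq transcripts. Per the submitters' processing notes, the tools were STAR, featureCounts and DESeq2 on mm10. These accounts differ; the strand setting and the annotation used for counting are not given in the sources used here, so reads of genes that overlap on opposite strands may be mixed. No deposited row lacked a gene name.

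Counts were filtered with filterByExpr and scaled by TMM, and Kmt5b shRNA was compared with GFP by edgeR's quasi-likelihood test (edgeR 4.0.16, R 4.3.3; robust, no covariate), with Benjamini-Hochberg adjustment over all 24419 genes tested and a threshold of 0.05. CPM values are counts scaled to the TMM-adjusted library size with edgeR. The SE is the log2 fold change divided by the root of F, and 95% intervals use 4 residual degrees of freedom. The fit was checked on simulated data. Gene identity came from GENCODE M21, which matched 53749 of the 54429 symbols. Sequence sharing was found with BLAST+ 2.17.0 among the longest transcripts of protein-coding genes and pseudogenes. Antisense and other noncoding transcripts were not searched. Transcript matches of at least 100 bases at 90% identity were counted as shared from 200 bases or 50% of the gene's length. Intronless copies were single-exon genes covered to 50% by a spliced parent. Ratios between paralogs were tested by two-sided exact permutation over libraries. Each result was also computed with DESeq2 1.42.0, under different scalings, filters and gene sets, with the replicate number as a block and with each library left out. The fits of genes sharing no sequence with a library left out or with the block were added after the data were seen. All 33 genes were described by class, with values in every library for those past the threshold, for 3 paralog pairs, for both glutamate transporters and for the genes of smallest p and largest change in each class. From 66 other presynaptic genes, those past the threshold and the 2 of smallest p in each direction were named. Nefh, Nefm, Pvalb, Kcnc1, Kcnc2, Gad1, Lhx6 and Tac1 are from the marker lists and were picked after their values were seen. The 33 genes, the lists and the tests were chosen with earlier results of these data known.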

Additional observations from a re-analysis of the deposited data

How the results depend on the processing

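Of the 33 genes, edgeR called 1 higher and 0 lower over all genes. Higher calls numbered 2 with DESeq2 and 2 with no low-count filter (Syn2 and Bsn in both). They numbered 0 among protein-coding genes, 0 among genes sharing no sequence, 0 there with the replicate block and 0 with counts of copies added, where Syn2 had adjusted p of 0.0527, 0.0959, 0.0959 and 0.0816. With each library left out, higher calls ranged from 0 to 1 over all genes and from 0 to 1 among genes sharing no sequence. Lower calls numbered 2 with DESeq2 and 2 with no low-count filter (Vamp1 and Syt2 in both), 1 with the replicate block (Vamp1), and ranged from 0 to 2 with each library left out, 2 being reached without GFP replicate 3. Of the other presynaptic genes, 2 were called higher over all genes, 0 among genes sharing no sequence, 1 with counts of copies added and 2 to 6 with each library left out, 6 being reached without GFP replicate 1. With each library left out, the share of all genes called ranged from 1.85% to 3.25% higher, highest without GFP replicate 1, and from 4.87% to 5.98% lower, and among genes sharing no sequence from 0.217% to 1.15% higher. Among the other presynaptic genes, the 1 lower call over all genes ranged from 0 to 1 with each library left out. The median log2 fold change of the 33 genes, 0.05, stayed between 0.01 and 0.06 under every alternative for which it was computed. It was not computed for the fits added after the data were seen. With each library left out, log2 fold changes changed sign for Sv2b (-0.0316 to 0.32), Syngr1 (-0.0914 to 0.0530), Slc17a7 (-0.12 to 0.0640), Slc17a6 (-0.23 to 0.0701), Rab3a (-0.0778 to 0.23), Syt4 (-0.0218 to 0.19), Snap25 (-0.21 to 0.0116), Rims2 (-0.0525 to 0.0399), Unc13b (-0.0426 to 0.0548), Erc2 (-0.0388 to 0.16), Amph (-0.10 to 0.0619) and the Slc17a6 to Slc17a7 ratio (-0.20 to 0.19). With upper-quartile scaling Rims2 was at -0.0148 and Unc13b at -0.0148, among protein-coding genes -0.0122 and -0.0117, among genes sharing no sequence -0.00214 and -0.00156, and Rims2 with copies added -8.84e-05. Same-numbered libraries had deviations correlated at -0.0344, -0.0102 and 0.218, and differently numbered libraries at values from -0.203 to 0.21. Such values cannot decide, with 3 libraries per group, whether the numbers pair the libraries. The replicate block gave 704 genes higher and 1507 lower, against 676 and 1390 without it. Over all genes, both counts moved by over 1.5 times among genes sharing no sequence (81 higher, 35 lower) and with copies added (361 and 413), and the lower count among protein-coding genes (184, with 471 higher). The cause of these changes was not tested. Every gene of the set had at least 512 counts in each library, and each group has only 3 libraries to estimate the spread from.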
